A study of Mus musculus with 9 samples.

Results

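The genes described here are 10 enzymes and chaperones that modify and fold procollagen chains in the endoplasmic reticulum: P4ha1, P4ha2, P4ha3, Plod1, Plod2, Plod3, P3h1, Crtap, Serpinh1 and Fkbp10. They were taken by gene symbol from a liver expression table of 21873 genes, and each symbol occurred on 1 row. Liver mRNA of 9 male C57BL/6 mice was sequenced, with 3 mice in each of 3 groups. Control mice received saline intraperitoneally for 8 weeks, the TAA group received thioacetamide, a hepatotoxin, by the same route for 8 weeks, and the recovery group received the same 8 weeks of thioacetamide followed by 8 weeks without injections. The mice were 8 weeks old at the start and their labels name no altered allele. Injections were given every 3 days, and control and TAA livers were taken 3 days after the last one. The recovery mice thus had 8 more weeks of age than the others when livers were taken, so that age and recovery cannot be told apart, and no age-matched control group was analysed here.

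Procollagen chains are hydroxylated while they are being made and before they wind into a helix. Prolyl hydroxylases make the residues that keep the helix stable at body temperature, lysyl hydroxylases make residues that later carry sugars or form cross-links between molecules, and dedicated chaperones and prolyl isomerases assist folding and accompany the helix out of the endoplasmic reticulum. In fibrotic liver, fibrillar collagen comes mainly from myofibroblasts, many of which derive from hepatic stellate cells.

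Values are FPKM, that is, fragments counted per length of gene and per number of mapped fragments, divided by a scaling factor per library, and a level always means this scaled FPKM. The factors were 0.827 to 0.878 in control livers, 1.29 to 1.38 in TAA livers and 0.893 to 0.907 in recovery livers. Groups were compared with limma on log2(scaled FPKM + 0.1), with Benjamini-Hochberg adjustment over all 14094 genes whose mean FPKM reached 0.1. A gene is called where its adjusted p was under 0.05 and its fold change at least 2. Of the 10 genes, 9 entered the test and P4ha3, with a mean FPKM of 0.0882, did not. Fold changes are on the log2(value + 0.1) scale, which understates the change of genes with low levels.

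The libraries carried the markers of liver. Alb, the gene for serum albumin, was the most abundant of 7 hepatocyte markers, and their summed level was 38701 to 42706 in control livers, 22368 to 29506 in TAA livers and 47696 to 50127 in recovery livers. A few libraries stood apart. TAA 3 held 11 of 11 skeletal muscle markers at a summed level of 45.0, led by Acta1 at 19.8, against 0.182 at most in any other library. Recovery 3 held the adrenal genes Cyp11a1 at 0.618 and Cyp11b1 at 0.719, whereas Cyp11a1 was listed at 0 in the other libraries. In control 1 the summed level of 7 endothelial markers was 52.6, against 96.0 and 92.2 in the other control libraries, and Gpnmb, a gene of lipid-laden macrophages, was at 22.2 against 0.188 and 0.102. Each count of calls among the 10 genes was therefore also taken without each of these libraries, and it stayed at 4 of 9 genes for TAA against control and at 4 of 9 for recovery against TAA, in each case with the same 4 genes.

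In the fibrotic liver, 4 of the 9 tested genes were called higher than in control liver, namely Serpinh1, Plod2, Fkbp10 and Crtap, and none was called lower. Over all tested genes, 17% were called higher and 8.02% lower. At an adjusted p under 0.05 alone, P4ha1 and Plod3 were also higher, making 6 of 9 genes, and Plod1 was lower, beside 28.2% of all genes higher and 26.3% lower. The median log2 fold change of the 9 genes was 0.55, against 0.02 over all tested genes. After recovery, the same 4 genes were called lower than in the TAA group, beside 14.3% of all genes called lower and 7.12% called higher. At an adjusted p under 0.05 alone, 5 of 9 genes were lower and 1 was higher than in the TAA group, beside 26% and 24.5% of all genes. Both comparisons use the same TAA libraries. In the coordinates of the table (mm10), Serpinh1 is at chr7:99345376-99353239, Plod2 at chr9:92542223-92608428, Fkbp10 at chr11:100415697-100424824 and Crtap at chr9:114116459-114390675.

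**Figure D1:**
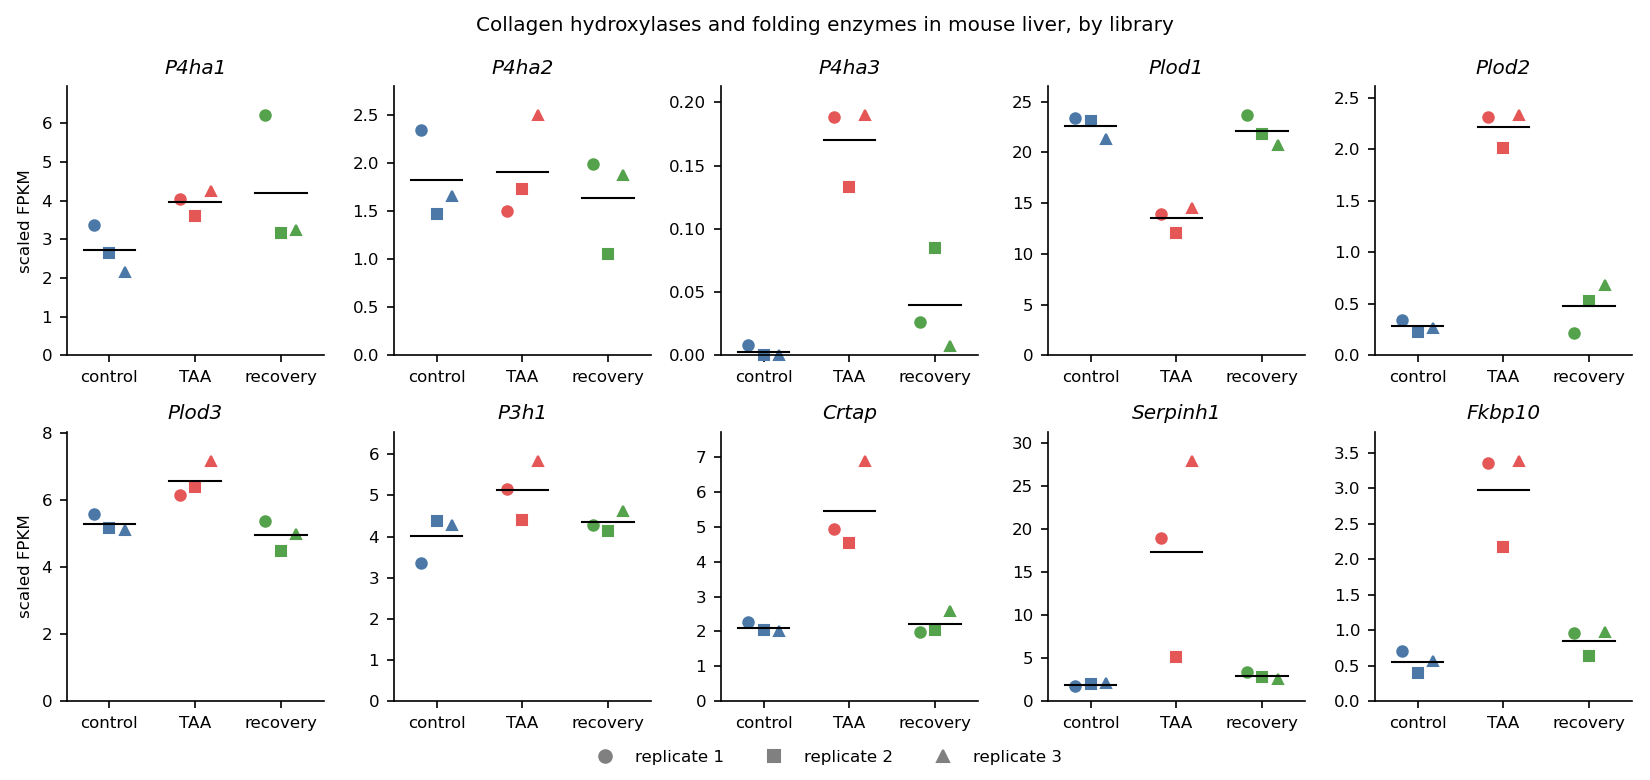
Scaled FPKM (vertical axes, from 0, a separate scale for each gene) of the 10 genes in the control, TAA and recovery groups (horizontal axes). Each point is 1 library and the black line is the group mean (n = 3); Serpinh1 spans 5.13 to 27.9 within the TAA group, and Plod1 is lower in the 3 TAA libraries than in all others.

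Among the chaperones, Serpinh1, a collagen-specific chaperone that binds the folded helix, was at 1.76, 1.95 and 2.08 in the control libraries, at 18.9, 5.13 and 27.9 in TAA 1, TAA 2 and TAA 3, and at 3.39, 2.77 and 2.57 in the recovery libraries. All TAA libraries were above all other libraries, but TAA 2 was far below the other 2. The rise was 2.80 on the log2 scale (95% CI 1.52 to 4.07; limma, adjusted p = 0.00373), and it was 3.51 without TAA 2 and 2.30 without TAA 3. The range of Serpinh1 within the TAA group, 2.42 on the log2 scale, was matched or exceeded by 34 of the 11101 genes whose mean FPKM reached 1 (0.306%), whose median range was 0.28. A few genes of the table jump between libraries of 1 group, such as mt-Co3, at 1516 in TAA 1 and at 0.787 and 0.788 in TAA 2 and TAA 3, so a single value such as that of TAA 2 carries this limit. In recovery, Serpinh1 fell by 2.24 from the TAA level (95% CI -3.49 to -0.98; limma, adjusted p = 0.0101), with a log2 difference of -2.95 without TAA 2 and -1.74 without TAA 3, and its 3 recovery values lay above the 3 control values. That remaining difference was 0.56 on the log2 scale (95% CI 0.21 to 0.92; limma, adjusted p = 0.0960) and did not pass the test.

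Fkbp10, a prolyl isomerase of the endoplasmic reticulum that assists procollagen folding, was at 0.710, 0.395 and 0.565 in the control libraries, at 3.36, 2.18 and 3.39 in the TAA libraries and at 0.958, 0.634 and 0.971 in the recovery libraries. The TAA libraries did not overlap with either of the other groups, while control and recovery libraries overlapped. The rise was 2.23 on the log2 scale (95% CI 1.65 to 2.81; limma, adjusted p = 0.000256), which on the level itself was 5.34-fold. In recovery it fell by 1.68 (95% CI -2.22 to -1.14; limma, adjusted p = 0.000700). Of the rise in mean level, 12.3% was left in the recovery group (3.19% to 17.2% by library), and 6.35% of that of Serpinh1 (4.14% to 9.47%). These ranges are over the recovery libraries alone. The share of Serpinh1 also depends on its TAA mean, whose libraries ran from 5.13 to 27.9. The Fkbp10 locus overlaps Nt5c3b, and fragments from the shared stretch cannot be told apart if strand was not used in counting.

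RNA of whole liver was sequenced, so fewer or more cells of a type and less or more RNA per cell cannot be told apart. Of 10 markers of hepatic stellate cells and myofibroblasts, 8 were called higher in TAA than in control liver, with a median log2 fold change of 1.42. Their summed level, led by Dcn, was 77.2, 116 and 131 in the control libraries, 233, 196 and 241 in the TAA libraries and 110, 143 and 145 in the recovery libraries. All 6 cholangiocyte markers were called higher, with summed levels of 15.7 to 21.0 in control livers, 295 to 443 in TAA livers and 27.9 to 38.4 in recovery livers, led by Spp1. TAA 2 had the lowest stellate marker sum of the TAA libraries and the lowest level of 8 of the 10 genes. TAA 3 had the highest stellate marker sum and the highest level of all 10. The other groups differed in this. Control 1 had the lowest sum of its group and the highest level of 8 genes, and recovery 1 the lowest sum and the highest level of 5. The sum follows its most abundant markers, and single markers could differ from it. Acta2 (1.73, 1.04 and 0.615) and Tagln (1.61, 1.35 and 1.44) were highest in control 1 among the control libraries, while the other markers of the list were lowest there. In recovery 1 both were the lowest of their group, at 0.493 and 1.04. Control 3 and recovery 3, with the highest sums of their groups, had the highest level of 1 and 4 genes. The part of these cells, and of the muscle RNA of TAA 3, in the levels of the 10 genes was not tested; without TAA 3 the same 4 genes were called.

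The 250 bases before the start site were read for 8 of the 10 genes from RefSeq (GRCm38.p6), and 4 are printed because their genes moved apart in these livers: Serpinh1 and Crtap rose, P4ha1 rose less, and Plod1 fell. Each is given 5′ to 3′ on the strand of its gene, with capitals for any match to the GC box GGGCGG, the hypoxia response core ACGTG, the heat shock element GAANNTTC, the TATA box TATAAA or the CCAAT box, searched on both strands. None of the printed matches overlaps another. The Serpinh1 window lies on the minus strand at chr7:99353240-99353489, Crtap on the minus strand at chr9:114390713-114390962, P4ha1 on the plus strand at chr10:59323046-59323295 and Plod1 on the minus strand at chr4:147936777-147937026.
Serpinh1: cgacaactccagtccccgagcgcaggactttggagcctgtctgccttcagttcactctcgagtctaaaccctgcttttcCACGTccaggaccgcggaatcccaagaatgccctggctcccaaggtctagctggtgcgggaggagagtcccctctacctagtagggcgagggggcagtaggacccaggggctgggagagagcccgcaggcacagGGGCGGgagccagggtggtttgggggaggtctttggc
Crtap: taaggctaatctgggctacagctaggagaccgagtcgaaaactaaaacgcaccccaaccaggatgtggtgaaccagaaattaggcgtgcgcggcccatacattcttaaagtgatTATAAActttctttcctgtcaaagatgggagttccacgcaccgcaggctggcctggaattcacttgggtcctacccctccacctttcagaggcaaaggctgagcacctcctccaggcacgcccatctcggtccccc
P4ha1: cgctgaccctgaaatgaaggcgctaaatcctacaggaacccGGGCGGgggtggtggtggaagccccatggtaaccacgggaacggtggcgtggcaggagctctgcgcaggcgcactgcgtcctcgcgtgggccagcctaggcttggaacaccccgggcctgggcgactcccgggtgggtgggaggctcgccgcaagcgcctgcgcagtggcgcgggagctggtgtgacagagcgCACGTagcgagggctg
Plod1: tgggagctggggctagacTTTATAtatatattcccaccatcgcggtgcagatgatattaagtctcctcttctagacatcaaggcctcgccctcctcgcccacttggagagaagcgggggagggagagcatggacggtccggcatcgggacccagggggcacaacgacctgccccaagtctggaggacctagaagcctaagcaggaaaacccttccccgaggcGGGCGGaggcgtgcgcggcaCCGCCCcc
The Serpinh1 and P4ha1 windows each held 1 GC box and 1 hypoxia core, both of the latter on the opposite strand. Crtap had a TATA box at 136 to 131 bases before the start site and none of the other motifs, and Plod1 had 2 GC boxes within the last 28 bases and a TATA box on the opposite strand. Of 32851 promoter windows of the same length, 32.7% held the GC box, 16.6% the hypoxia core, 6.69% the heat shock element, 12.4% the TATA box and 33.8% the CCAAT box. These matches describe letters and say nothing on whether a factor binds there. Plod2 and Fkbp10 had no entry.

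The lysyl hydroxylases changed in different directions. Plod2, which hydroxylates the lysines of the collagen ends that form pyridinoline cross-links, was at 0.346, 0.228 and 0.267 in the control libraries, at 2.32, 2.01 and 2.34 in the TAA libraries and at 0.218, 0.532 and 0.683 in the recovery libraries. The TAA libraries were close to each other and above all others, and the recovery libraries spread around the control range. The rise was 2.62 on the log2 scale (95% CI 2.2 to 3.04; limma, adjusted p = 3.02e-05), or 7.93-fold on the level itself. In recovery, Plod2 fell by 2.10 (95% CI -2.84 to -1.36; limma, adjusted p = 0.00111), and 10.2% of the rise in mean level was left, with -3.20%, 12.9% and 20.8% in recovery 1, recovery 2 and recovery 3.

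Plod1, which hydroxylates lysines within the helix, was at 23.4, 23.1 and 21.3 in the control libraries, at 13.9, 12.1 and 14.5 in the TAA libraries and at 23.7, 21.8 and 20.7 in the recovery libraries. Its listed FPKM was the highest of the 10 genes in every control and recovery library, and in the TAA group it was lower in 3 of 3 libraries than in any other. Relative to most genes it fell by 0.74 on the log2 scale (95% CI -0.97 to -0.51; limma, adjusted p = 0.000586) and rose by 0.71 in recovery (95% CI 0.47 to 0.95; adjusted p = 0.000919). Both changes were under 2-fold. They depend on the scaling, since Plod1 fell by 0.11 with FPKM as deposited (adjusted p = 0.365; range over the alternatives 0.000126 to 1), where the median of all tested genes was shifted by 0.61.

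Plod3, which both hydroxylates lysines and adds sugars to them, was at 5.11 to 5.59 in control livers, 6.16 to 7.17 in TAA livers and 4.49 to 5.38 in recovery livers. The TAA libraries were above all others, by a log2 fold change of 0.30 over control (95% CI 0.06 to 0.55; limma, adjusted p = 0.0408), and it no longer passed without TAA 1, TAA 2, TAA 3, control 2 or control 3, at an adjusted p of 0.0586 to 0.111. Over all alternatives that adjusted p ranged from 0.000271 to 1. Plod3 was lower in recovery by 0.40 (95% CI -0.67 to -0.13; limma, adjusted p = 0.0214), and did not pass without TAA 3 or recovery 2 (0.0676 and 0.0712). Its locus overlaps Znhit1.

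Shares within the family do not depend on a scaling by 1 factor per library. Plod1 made up 79.8%, 81.0% and 79.8% of the summed Plod FPKM in the control libraries, 62.1%, 59.0% and 60.4% in the TAA libraries and 80.9%, 81.3% and 78.5% in the recovery libraries. Plod2 made up 0.993% ± 0.189 (SD, n = 3) in control livers, 9.97% ± 0.329 in TAA livers and 1.77% ± 0.940 in recovery livers, and Plod3 made up 18.8% ± 0.544, 29.5% ± 1.85 and 18.0% ± 1.15. For each of the 3 genes the TAA shares lay apart from those of both other groups, with an exact two-sided permutation p of 0.10, the smallest that 3 against 3 allows, and an adjusted p of 0.15 over 9 comparisons. Control and recovery shares overlapped for all 3. The 3 shares are parts of 1 sum, so a fall of 1 raises the others and they are not separate results. After scaling, the mean level of Plod3 itself rose 1.24-fold in TAA liver, while that of Plod1 was 0.598 of control. How many other gene families have shares that lie apart in this way was not counted. The level of Plod2 was 16.1% to 16.7% of that of Plod1 in the TAA libraries, 0.989% to 1.48% in the control libraries and 0.920% to 3.30% in the recovery libraries.

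**Figure D2:**
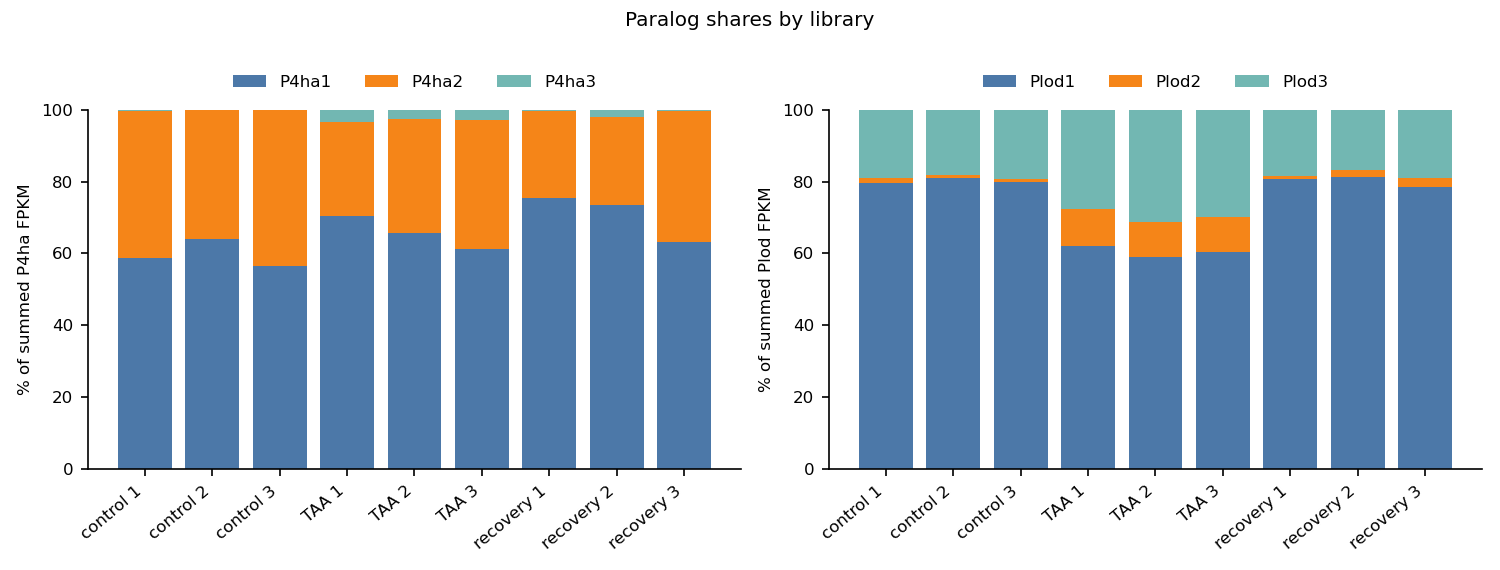
Share (vertical axis, %) of each paralog in the summed FPKM of the P4ha genes (left) and the Plod genes (right) in each of the 9 libraries (horizontal axis). The Plod1 share is 59.0% to 62.1% in the TAA libraries and 78.5% to 81.3% in the others, while the P4ha1 share is the largest of its family in all 9.

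In the complex that hydroxylates single prolines at their 3 position, Crtap, the non-catalytic helper protein, was at 2.26, 2.04 and 2.01 in the control libraries, at 4.95, 4.53 and 6.89 in the TAA libraries and at 1.97, 2.05 and 2.58 in the recovery libraries. The TAA libraries were above all others, and recovery and control libraries overlapped. The rise was 1.31 on the log2 scale (95% CI 0.91 to 1.71; limma, adjusted p = 0.000541), and in recovery Crtap fell by 1.26 (95% CI -1.69 to -0.83; limma, adjusted p = 0.000973). Of the rise in mean level, 2.96% was left, with -3.96%, -1.48% and 14.3% in recovery 1, recovery 2 and recovery 3. The Crtap row of the table spans 274217 bases, against 15542 in the GENCODE M21 annotation, and overlaps Bcl2a1c, so fragments from outside the annotated gene may be included, and the length by which its FPKM was divided is not known.

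P3h1, the catalytic subunit, was at 3.35 to 4.39 in control livers, 4.39 to 5.84 in TAA livers and 4.13 to 4.62 in recovery livers, and its log2 difference between TAA and control was 0.35 (95% CI -0.01 to 0.71; limma, adjusted p = 0.0939), which did not pass the test. It passed with FPKM as deposited (adjusted p = 0.00163) and with upper-quartile factors (0.0260), where the median of all genes was shifted by 0.61 and 0.18; over the alternatives it ranged from 0.00163 to 1. The ratio of the listed FPKM of P3h1 to that of Crtap, which does not give the proportion of the 2 mRNAs while the Crtap length is unknown, was 1.92 ± 0.380 (SD, n = 3) in control livers, 0.953 ± 0.0986 in TAA livers and 1.99 ± 0.191 in recovery livers. The TAA ratios, 0.847 to 1.04, lay below all others; fragments from outside Crtap would not cancel if they differed between groups, which was not tested. Ppib, the cyclophilin that completes the complex, was at 108 to 117 in control livers and 153 to 164 in TAA livers, with a log2 fold change of 0.50 (limma, adjusted p = 0.00179).

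Of the prolyl 4-hydroxylases, whose product keeps the helix folded, P4ha1 and P4ha2 changed less between control and TAA liver than the 4 called genes. P4ha1, a catalytic subunit, was at 3.36, 2.64 and 2.15 in the control libraries, at 4.04, 3.59 and 4.25 in the TAA libraries and at 6.21, 3.16 and 3.23 in the recovery libraries. The TAA libraries were above the control libraries, and recovery 1 was the highest of all 9. The log2 fold change of TAA over control was 0.55 (95% CI 0.14 to 0.95; limma, adjusted p = 0.0312), and it no longer passed without TAA 1, TAA 3, control 2 or control 3, at an adjusted p of 0.0754 to 0.10, or after quantile normalization (0.0840). The fold change of TAA over control was 1.17 on the log2 scale with FPKM as deposited, where P4ha1 was called, and 0.73 with upper-quartile factors. Over all alternatives the adjusted p for TAA against control ranged from 0.000569 to 1. The difference between recovery and TAA was 0.01 (95% CI -0.57 to 0.60; adjusted p = 0.966), and -0.30 without recovery 1. Recovery 1 also held the highest Hspa5 and Sdf2l1, chaperone genes of the endoplasmic reticulum, at 189 and 8.42, against at most 131 and 7.70 elsewhere. Of the list of general chaperones and disulfide isomerases given below, Pdia3, Pdia4, Canx, Calr, Dnajc3, Hyou1, Manf and Ero1b were also highest there. Hsp90b1, Pdia6, Dnajb11, Creld2, Ero1a and Uggt1 were not. The part of the state of recovery 1 in its P4ha1 level was not tested.

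P4ha2, a further catalytic subunit, was at 1.47 to 2.35 in control livers, 1.5 to 2.5 in TAA livers and 1.06 to 1.98 in recovery livers, and the 3 groups overlapped. Its log2 difference between TAA and control was 0.06 (95% CI -0.50 to 0.62; limma, adjusted p = 0.856), and it was -0.35 after quantile normalization (0.283) and 0.66 with FPKM as deposited, which passed (0.0430; range over the alternatives 0.0430 to 1). With FPKM as deposited it also passed for recovery against TAA (-0.76; adjusted p = 0.0469; range 0.0469 to 1), where it was -0.23 after scaling (0.521). P4ha3, the remaining paralog, was at 0.00843, 0 and 0 in the control libraries and at 0.188, 0.133 and 0.190 in the TAA libraries. In the recovery libraries it was at 0.0267, 0.0849 and 0.00765. The TAA libraries were above all others, and the gene was tested only with no filter on low values. Its log2 fold change was then 1.39 for TAA against control (limma, adjusted p = 0.000388) and -0.98 for recovery against TAA (adjusted p = 0.0153). With levels this near 0, the size of both is set largely by the added 0.1. P4ha1 was 56.5% to 64.2% of the summed P4ha FPKM in control livers, 61.2% to 70.5% in TAA livers and 63.2% to 75.5% in recovery livers, and the P4ha2 share was 35.8% to 43.5%, 26.2% to 36.0% and 24.1% to 36.6%. For both genes the shares overlapped between every pair of groups (exact two-sided permutation p from 0.20 to 0.60, adjusted p from 0.257 to 0.60). The P4ha3 share was 0 to 0.147% in control livers, 2.44% to 3.28% in TAA livers and 0.150% to 1.97% in recovery livers (exact two-sided permutation p = 0.10 for each pair of groups, adjusted p = 0.257 over 9 comparisons).

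P4hb, the protein disulfide isomerase that forms the other subunit of these enzymes and has many further substrates, was at 440, 420 and 422 in the control libraries, at 316, 341 and 323 in the TAA libraries and at 450, 421 and 404 in the recovery libraries. At these levels it was lower in all TAA libraries than in the others (log2 fold change -0.39; limma, adjusted p = 0.00815), but the direction depends on the scaling, since it was 0.25 with FPKM as deposited (0.0307) and 0.86 after quantile normalization (0.000479; range over the alternatives 0.000479 to 1). Per length, P4hb was 77.0 to 111 times the summed P4ha level in the control libraries, 46.6 to 62.5 times in the TAA libraries and 54.8 to 97.9 times in the recovery libraries. The listed FPKM of P4hb thus exceeded the summed P4ha FPKM in every library. This is mRNA of whole liver, and it does not give the proportion of the subunit proteins or of the mRNAs within collagen-making cells.

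**Figure D3:**
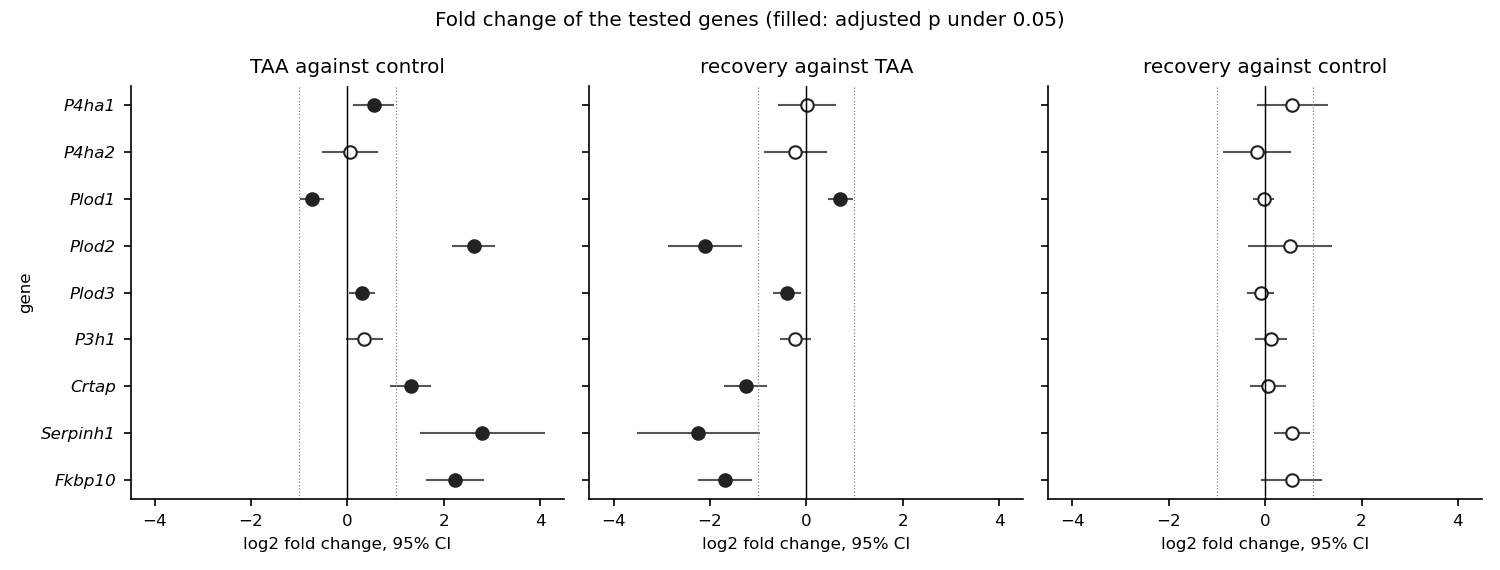
Log2 fold change (horizontal axes, points) with 95% CI (lines) of the 9 tested genes (vertical axis) in the 3 comparisons, 3 libraries per group; filled points have an adjusted p under 0.05 and dotted lines mark a 2-fold change. In both comparisons with TAA liver the intervals of Serpinh1 are the widest, at 1.52 to 4.07 for TAA against control, and no point is filled for recovery against control.

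Against control liver, 0 of 9 genes were called in the recovery group by limma, and 0 passed an adjusted p under 0.05 alone, with 1 (Serpinh1) at an unadjusted p under 0.05. Over all tested genes, 0.582% were called higher and 0.412% lower, and 1.33% and 1.38% passed the adjusted p alone. The count was 0 in every alternative as well. The median log2 difference of the 9 genes was 0.12, against 0.01 over all genes. The intervals still allow sizeable differences for low genes, such as -0.33 to 1.36 for Plod2 and -0.06 to 1.15 for Fkbp10, while that of Plod1, -0.22 to 0.16, is narrow.

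The levels were also set against Col1a1, which codes for a chain of type I collagen. Col1a1 was at 1.04, 1.01 and 0.995 in the control libraries, at 77.2, 49.3 and 78.2 in the TAA libraries and at 1.16, 2.2 and 3.60 in the recovery libraries. The rise was 5.91 on the log2 scale (limma, adjusted p = 1.65e-06). Col3a1 was above Col1a1 in all 9 libraries, at 2.29 to 3.94 in control livers and 82.1 to 108 in TAA livers, and ratios to it were not taken. Leaving out Crtap, whose length is not known, 6 of 8 genes were above Col1a1 per length in every control library, the exceptions being Plod2 and Fkbp10, and all 8 were below it in TAA liver. Serpinh1 was 169%, 194% and 208% of Col1a1 in the control libraries, 24.6%, 10.4% and 35.7% in the TAA libraries and 291%, 126% and 71.3% in the recovery libraries. Fkbp10 was 4.33% to 4.41% of Col1a1 in the 3 TAA libraries, the narrowest range of the 9 genes, and P4ha1 was 5.23% to 7.28%.

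The log2 ratio to Col1a1 differed between TAA and control by -3.04 for Plod2 to -6.79 for Plod1, with the TAA libraries below all control libraries for each of the 9 genes (exact two-sided permutation p = 0.10, adjusted p = 0.129 over 27 comparisons). So were 99.2% of the 13614 tested genes above 0 in all libraries, by a median of -6.04, so this fall is that of nearly any gene beside Col1a1. In recovery the ratio of each gene rose again, with no overlap with the TAA libraries, as it did for 98.9% of all genes. Recovery ratios lay below control ratios without overlap for Plod1, Plod3 and Crtap, beside 50% of all genes, and the log2 ratio differed by -1.08, -1.15 and -0.99. Without recovery 3 these were -0.65, -0.77 and -0.72, and without recovery 1 they were -1.56, -1.63 and -1.34. Among the recovery libraries the ratios to Col1a1 were highest in recovery 1 for 8 of these genes, and Col1a1 itself was lowest there. Because these values share 1 denominator, they move with Col1a1 in each library.

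**Figure D4:**
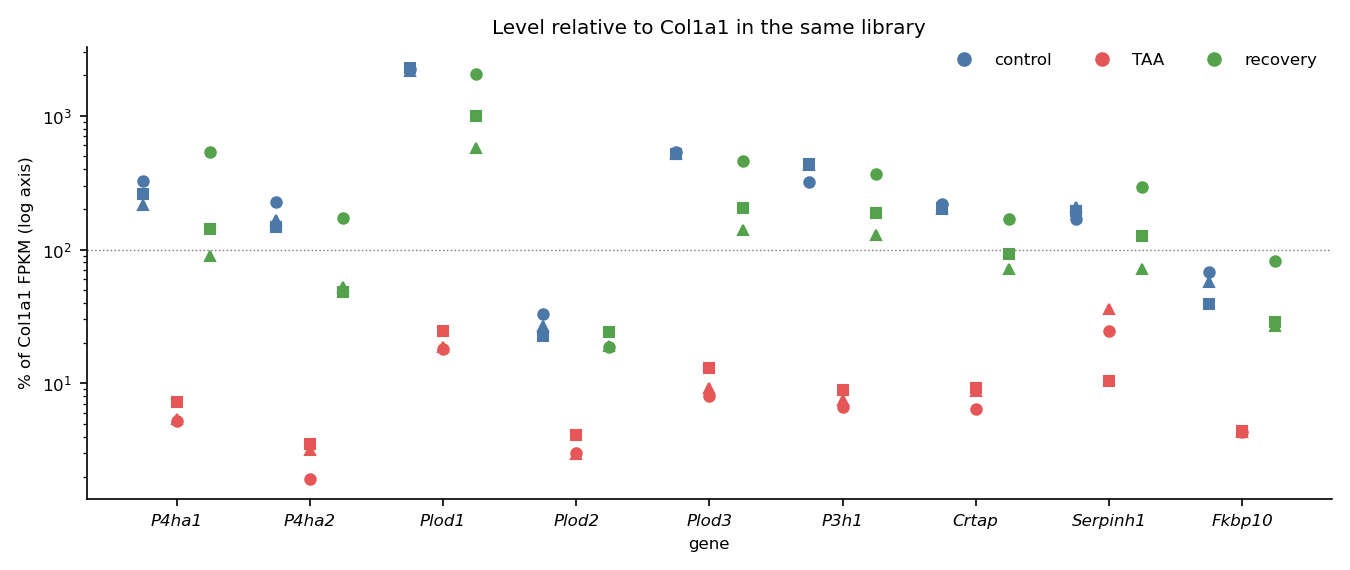
Level of each of the 9 tested genes as a percentage of Col1a1 in the same library (vertical axis, log scale; the dotted line is 100%), with 1 point per library in the control, TAA and recovery groups. All TAA points lie under the line, from 1.94% for P4ha2 to 35.7% for Serpinh1.

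Other genes of collagen production were taken from 7 lists with 89 genes, of which 84 were tested. In TAA against control, 26 of the 84 were called higher and 8 lower, beside 17% and 8.02% of all tested genes. In recovery against TAA, 5 were called higher and 22 lower, beside 7.12% and 14.3% of all tested genes. The falls depend most on the scaling, since 2 of the 8 called lower in TAA liver (Bnip3 and Pdk1) were still called with FPKM as deposited. Of 7 tested fibril-forming chains, 5 were called higher and Col5a3 lower, with a median log2 fold change of 3.73. Of 10 chains of network and other types, 9 were called higher and Col18a1 lower, with a median of 2.04. Both medians were above the 0.55 of the hydroxylases and folding enzymes. Against control liver, 0 of the 84 genes were called in recovery by limma, with 4 at an adjusted p under 0.05 alone (Creld2 higher; Mia3, Bnip3 and Pdk1 lower) and 21 at an unadjusted p under 0.05.

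Of 13 partner subunits and paralogs of the 10 genes, 5 were called higher and none lower, with a median log2 fold change of 0.53. The count higher was 8 with FPKM as deposited and 3 after quantile normalization (P3h3, Fkbp11 and Ppib). P3h3, a paralog of P3h1 that works with Plod1, was at 0.623 to 0.894 in control livers and 1.62 to 3.09 in TAA livers (log2 fold change 1.58; limma, adjusted p = 0.00157). Fkbp11, a further isomerase of the endoplasmic reticulum, was at 3.50 to 5.36 and 10.7 to 12.1 (1.29; adjusted p = 0.000481), and at 3.04 to 3.86 in recovery. P3h2 and Fkbp7 were also called higher, as was P4htm, a transmembrane prolyl hydroxylase, but none of these 3 after quantile normalization. Colgalt1, which adds galactose to hydroxylysine, was at 23.8 to 24.4 in control livers and at 21.8, 11.2 and 12.8 in the TAA libraries, where TAA 1 lay close to the control range.

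Genes of procollagen export and processing were divided, with 6 of 16 called higher and 1 lower and a median log2 fold change of -0.14. After quantile normalization 3 were called higher (Sparc, Pcolce and Adamts2) and 1 lower (Pcolce2, called under no other scaling), and with FPKM as deposited 6 and 0, with a median of 0.49. Sparc, a collagen-binding protein, was at 9.55 to 13.9 in control livers and 79.0 to 115 in TAA livers (log2 fold change 2.97; limma, adjusted p = 2.02e-05), and Adamts2, which removes the amino-terminal propeptide, was at 0.674 to 0.810 and 3.85 to 6.26 (2.66; adjusted p = 4.12e-05). Pcolce, an enhancer of carboxy-terminal cleavage, rose by 2.31 on the log2 scale, while Bmp1, the protease it assists, was at 33.3 to 34.5 in control livers and 16.2 to 18.9 in TAA livers (-0.95; adjusted p = 9.43e-05), or -0.61 after quantile normalization and -0.31 with FPKM as deposited. Mia3, the export receptor for procollagen, fell by 1.26 (adjusted p = 5.16e-05), from levels of 92.0 to 107 to levels of 37.6 to 44.4, and stayed lower but under 2-fold after quantile normalization (-0.71) and with FPKM as deposited (-0.62). In recovery it was at 69.6 to 74.0, below all control libraries, with a log2 difference of -0.45 (adjusted p = 0.0423). Tll1 and Tll2 were too low to be tested.

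General chaperones and disulfide isomerases of the endoplasmic reticulum had 0 of 16 called higher in TAA against control, 1 called lower and a median log2 fold change of 0.05. With FPKM as deposited 4 were called higher and 0 lower, with a median of 0.68, and after quantile normalization 2 and 0, with a median of 0.62. At an adjusted p under 0.05 alone, 4 were higher and 2 lower (6 had an unadjusted p under 0.05), and these 2 counts were 14 and 0 with FPKM as deposited and 11 and 2 after quantile normalization. Calr was at 161 to 172 in control livers and 155 to 171 in TAA livers, and Hspa5 was at 75.4 to 116 and 120 to 131. Ero1b, an oxidase that recharges disulfide isomerases, was the called gene, from 13.9 to 16.7 down to 5.70 to 9.10 (log2 fold change -1.06; limma, adjusted p = 0.00176), and it stayed lower but under 2-fold with upper-quartile factors (-0.87), after quantile normalization (-0.91) and with FPKM as deposited (-0.42). Of 14 tested hypoxia-inducible genes, 1 was called higher (Hk2) and 4 lower (Vegfa, Ldha, Bnip3 and Pdk1), with a median of -0.02. Car9, the gene of this list too low to be tested, was at 0.0223 to 0.0554 in control livers and 0.113 to 0.198 in TAA livers. The part of hypoxia in the levels of the hydroxylases and folding enzymes was not tested. The balance of this list depends on the scaling, since 3 were called higher and 2 lower with FPKM as deposited, with a median of 0.58, and after quantile normalization 0 and 3, with Ldha at 0.18. Of 9 genes that supply or use the ascorbate, iron or oxoglutarate these enzymes need, none was called by limma, 5 were lower at an adjusted p under 0.05 alone, 6 had an unadjusted p under 0.05, and the median was -0.49. The largest fall, -0.91, was that of Ogdh, which consumes oxoglutarate. The direction of this list depends on the scaling. At an adjusted p under 0.05 alone, 4 were higher and 1 lower with FPKM as deposited, with a median of 0.15. After quantile normalization 4 were higher and 2 lower, with a median of 0.24, and 1 gene was called higher. Gulo, the last enzyme of ascorbate synthesis in mice, was at 142 to 147 in control livers, 91.2 to 111 in TAA livers and 121 to 141 in recovery livers.

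**Figure D5:**
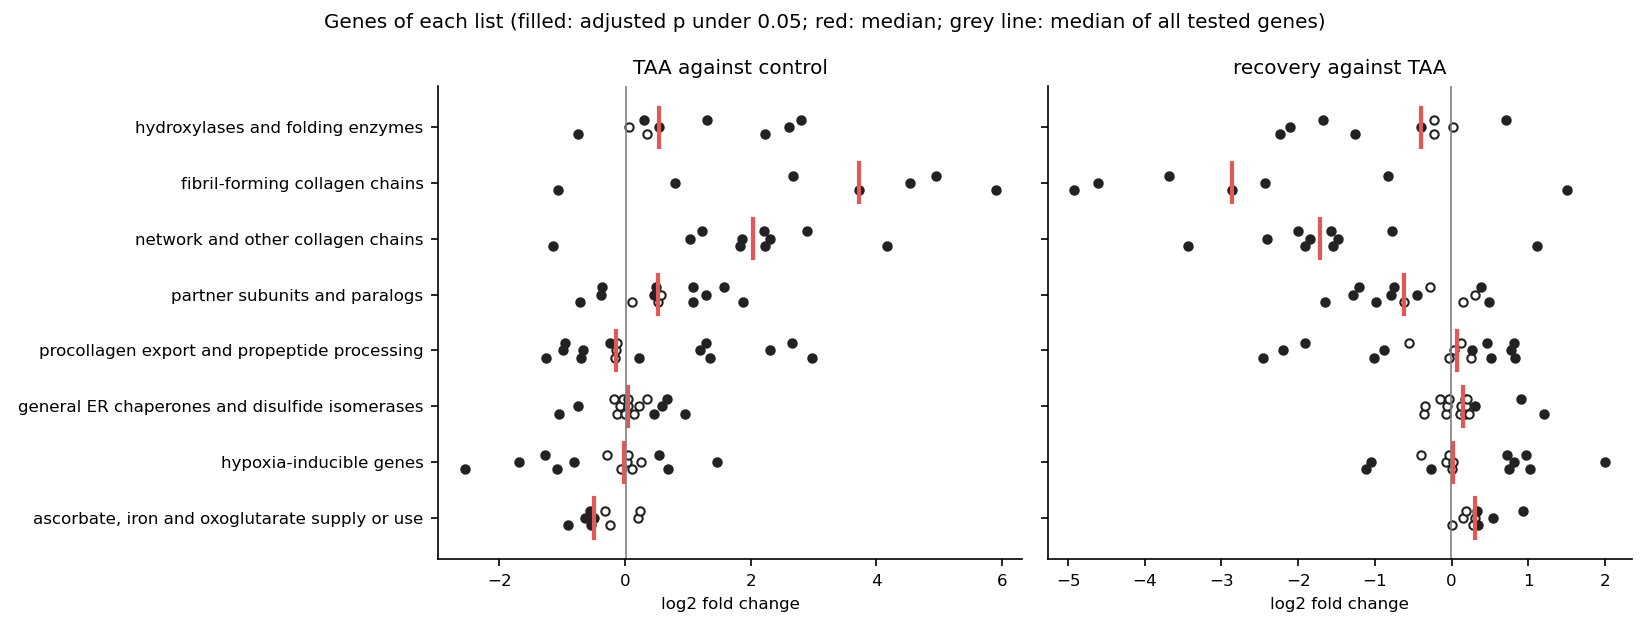
Log2 fold change (horizontal axes) of each tested gene of the 10 hydroxylases and folding enzymes and of the 7 other lists (vertical axis) for TAA against control (left) and recovery against TAA (right). Filled points have an adjusted p under 0.05, red bars are list medians and the grey line is the median of all tested genes; the medians for TAA against control run from 3.73 for fibril-forming chains to -0.49 for ascorbate, iron and oxoglutarate supply or use.

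The genes nearest in pattern were sought among the 11092 others whose mean FPKM reached 1, by the root mean square difference over the 9 libraries of log2(level + 0.1) from the control mean. For Serpinh1 these were Cpxm1 (0.42), Lama2 (0.44) and Tgfb3 (0.47). For Fkbp10 they were Rab11fip5 (0.16), Hist2h3c2 (0.20) and Isyna1 (0.22), and for Plod2 they were Mfap4 (0.19), Tpd52 (0.24) and Dync2li1 (0.24). For P4ha1 the nearest were Manf (0.17), Zfp142 (0.20) and Rrp15 (0.22). Among the 10 genes themselves the closest pair was Plod3 and P3h1 (0.20), and Plod1 and Serpinh1 were the farthest apart (2.14).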

How the data were processed

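Liver mRNA of 9 mice was sequenced as paired-end reads. The authors filtered the reads, mapped them to mm10 with HISAT2 2.2.1 and counted them per gene with featureCounts 1.5.0-p3. They deposited FPKM values with 1 column per mouse. The annotation release is not given in the sources used here. The deposited values also include 17 XLOC identifiers, and a few genes jump between libraries of 1 group, as described for mt-Co3. Whether the FPKM came from these counts alone was not tested. From the steps between low values, the depth of each library came out between 27.1 and 40.6 M fragments, with 56.8% to 67.0% of low values within 0.08 of a whole fragment, where 16% would be by chance, so counts were not recovered.

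Scaling factors were medians of ratios over the 14005 genes above 0 in all libraries. The 6 libraries of a comparison entered limma 3.58.1 (R 4.3.3, lmFit, eBayes with trend = TRUE) as log2(scaled FPKM + 0.1). Shares and ratios were compared by exact permutation (scipy 1.17.1). Alternatives to the pseudocount, filter, scaling, variance model, threshold test and libraries were tried, and the replicate number was also used as a block. The 10 genes and the lists were chosen with earlier results of these data known. Named genes are the 10, members of the lists and the 3 genes nearest in pattern to Serpinh1, P4ha1, Plod2 and Fkbp10; genes whose loci overlap those of the 10 are also named, and mt-Co3 was chosen after its values were seen. Cell markers were read from 9 lists.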

Additional observations from a re-analysis of the deposited data

How the results depend on the processing

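Serpinh1, Plod2, Fkbp10 and Crtap were called in both TAA comparisons under each scaling and without each library, though not with every pseudocount. Tested against a 2-fold change with treat, 2 of 9 genes were called for TAA against control (Plod2 and Fkbp10) and 0 for recovery against TAA, where the threshold itself is stricter. Of the 84 genes of the pathway lists, 34 were called in TAA against control and 27 in recovery against TAA; treat called 15 and 14, and a pseudocount of 1 called 22 in TAA against control, since it shrinks low genes (Crtap, in recovery against TAA, then fell just short of 2-fold at a log2 difference of -0.9989, leaving 3 genes called). Without single libraries these counts were 32 to 35 and 22 to 29. With 0.1 added to each FPKM, the P4ha3 share differed between TAA and control by 2.11 percentage points in place of 2.77. For TAA against control, P4ha1 was also called with FPKM as deposited, and P4ha3 with no filter on low values, making 5 genes each time. Among the 9 tested hydroxylases and folding enzymes alone, single genes crossed the 0.05 threshold in 29 losses and 6 gains of 486 values. The 4 called genes kept their sign in both TAA comparisons. P4ha2 changed sign after quantile normalization, to -0.35 for TAA against control and 0.15 for recovery against TAA. For recovery against TAA, P4ha1 was at -0.53 with FPKM as deposited and at 0.01 after scaling. Genes of the other lists, such as P4hb and Ldha, also changed sign with the scaling. The causes were not tested.

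With FPKM as deposited the median of all genes moved by 0.61 for TAA against control and by -0.54 for recovery against TAA, and 91.2% and 9.89% of the called genes were higher, against 67.9% and 33.2% after scaling. After quantile normalization these shares were 53.1% and 46.5%. For recovery against control the share was 69.3% as deposited and 58.6% after scaling. With the replicate number as a block (replicate block), 4, 4 and 0 of the genes were called in the 3 comparisons. Deviations of same-numbered mice correlated weakly (r from -0.07 to 0.12), and not every library correlated best with its own number. With 3 libraries per group these values cannot decide whether the number is a pairing, and the main fit used none. Genes near 0, such as P4ha3, are limited by depth, and 3 libraries per group limit all intervals.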

Other observations

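Some markers of other cells moved with the groups, though none of the hydroxylases and folding enzymes defines these cells. Of 8 macrophage markers, 2 were called higher in TAA than in control liver (Cd68 and Marco), and 1 of 8 lymphocyte markers (Cd8a). Of 7 endothelial markers 0 were called by limma, with 1 at an unadjusted p under 0.05. Of 7 hepatocyte markers 4 were called lower, but 0 were with FPKM as deposited or after quantile normalization. As deposited, 5 macrophage and 5 lymphocyte markers were called higher. Of 11 skeletal muscle markers, high in 1 TAA library alone, 0 were called and 0 had an unadjusted p under 0.05. Of 3 tested adrenal markers 1 was called higher, Cyp21a1, at 0.0654 to 0.158 in the control group and 3.07 to 5.99 in the TAA group, without the other adrenal genes, and of the adipocyte list Cidec and Cfd were called lower and Fabp4 higher. Lep was listed at 0 in all 9 libraries.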
